A study of Mus musculus with 15 samples.

Results

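Jun, Junb, Jund, Jdp2, Batf, Batf3 and Atf3 encode basic leucine zipper proteins that can sit in AP-1, and the chromatin around these 7 genes was described in mouse embryonic fibroblasts (MEFs) after activation of Fosl2, which encodes the Fos family protein Fra2, or after inhibition of Ezh2. A consensus peak was counted for a gene when that gene was the nearest protein-coding gene, with the peak centre inside the gene or within 100 kb of it. This rule gave 107 of 206367 peaks: 30 for Jun, 8 for Junb, 4 for Jund, 30 for Jdp2, 4 for Batf, 10 for Batf3 and 21 for Atf3. The genes lie in mm10 at chr4:95049036-95052222 (Jun, minus strand), chr8:84976909-84978748 (Junb, minus), chr8:70697739-70700616 (Jund, plus), chr12:85598656-85639878 (Jdp2, plus), chr12:85686720-85709087 (Batf, plus), chr1:191098414-191108943 (Batf3, plus) and chr1:191170296-191183333 (Atf3, minus). Peak positions given later are on the chromosome of their gene. The nearest gene need not be the gene that a peak regulates.

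AP-1 is a pair of basic leucine zipper proteins that binds DNA in promoters and enhancers and is best known for its induction by serum, growth factors and stress. Jun proteins pair with one another or with a Fos protein such as Fra2, while Fos proteins need a Jun partner to bind. Jdp2, Batf, Batf3 and Atf3 pair with Jun proteins too, and they are known mostly as alternative or repressive partners. In fibroblasts Jun promotes and Junb can restrain cell cycle entry.

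Omni-ATAC-seq, in which a transposase inserts adapters into open chromatin, was applied to MEFs of a C57/B16 background in 5 groups of 3 libraries. All cells of the control and Fra2 groups carried a lentiviral CRISPR activation construct (VPR, with an mCherry reporter) and were sorted for mCherry and THY1. The control groups received scrambled guides and the Fra2 groups guides against Fra2, each at an early time (day 3 in most sample labels, day 4 in the series design) and a late time (day 10 or 11). Early control 3 carries day 4 in its label. The fifth group, labelled day 4, received 4 µM GSK343 over 3 days and then 1 day of washout; this compound blocks Ezh2, the enzyme that methylates histone H3 in Polycomb repression. For this group no transduction or sort is stated, so any such step and the inhibitor cannot be told apart in the comparison with early control. Replicates are not stated to be separate cultures, and p-values here reflect library-to-library spread, possibly only technical.

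Libraries held 6750614 to 25283489 counts in peaks. Early control 3 was the shallowest, with a lowest correlation to its own group of 0.783, and its mean level over the 107 peaks was 5.87 CPM (counts scaled to library size) against 7.25 and 7.19 in early controls 1 and 2. Gene-end peaks were found for 10 of 10 fibroblast marker genes, at 6.82 to 10.1 CPM per peak over the libraries. Their level was 6.82 to 7.41 CPM in late Fra2 and 7.92 to 9.26 CPM in late control libraries, and 7.79 to 8.62 CPM in early Fra2, 7.83 to 10.1 CPM in early control and 7.41 to 7.78 CPM in inhibitor libraries. They were also found for 9 of 13 immune markers, at 4.62 to 5.6 CPM, for 2 of 3 endothelial markers, at 4.18 to 6.39 CPM, and for 2 of 3 epithelial markers, at 2.43 to 4.43 CPM. The epithelial markers stood at 2.43 to 2.75 CPM in inhibitor and 3.15 to 4.43 CPM in early control libraries. An open gene end is not a measure of expression, and the part of other cell types in the results was not tested. In bulk samples fewer cells with an open site and a less open site in each cell cannot be told apart.

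The promoters of 3 genes are shown because a peak of the dataset overlaps each one and because the later results turn on Jun, Junb and Atf3. Each line gives the 250 bases before the annotated start, 5′ to 3′ on the strand of the gene, from RefSeq (GRCm38.p6, the assembly also named mm10). Capitals mark a match to a motif searched on both strands, and a window without capitals held none.
Jun, chr4:95052223-95052472, minus strand: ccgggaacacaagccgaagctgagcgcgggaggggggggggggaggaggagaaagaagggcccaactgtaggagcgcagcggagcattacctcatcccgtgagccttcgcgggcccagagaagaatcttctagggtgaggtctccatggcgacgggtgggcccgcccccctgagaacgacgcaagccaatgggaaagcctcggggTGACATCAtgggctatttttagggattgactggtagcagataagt
Junb, chr8:84978749-84978998, minus strand: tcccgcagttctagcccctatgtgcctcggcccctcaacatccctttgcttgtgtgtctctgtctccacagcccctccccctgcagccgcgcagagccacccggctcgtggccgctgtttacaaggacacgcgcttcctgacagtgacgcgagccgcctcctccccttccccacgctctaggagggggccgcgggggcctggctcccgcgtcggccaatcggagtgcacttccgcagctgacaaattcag
Atf3, chr1:191183334-191183583, minus strand: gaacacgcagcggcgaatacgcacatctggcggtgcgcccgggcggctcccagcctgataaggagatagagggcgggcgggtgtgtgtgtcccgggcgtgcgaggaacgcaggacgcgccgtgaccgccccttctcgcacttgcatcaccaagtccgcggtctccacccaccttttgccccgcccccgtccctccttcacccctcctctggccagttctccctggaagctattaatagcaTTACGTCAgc

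The capitals in the Jun promoter, TGACATCA, start 45 bases before the annotated start and match TGACNTCA, a CRE-like motif that 7.49% of 32817 promoter windows hold. Those in the Atf3 promoter, TTACGTCA, start 10 bases before the start and match a variant that 0.445% of the windows hold. The AP-1 motif TGANTCA, present in 6.75% of the windows, was found in none of the 9 windows of the 7 genes. A match is a description of the letters and not evidence of binding. The windows of Jund and Batf overlap none of the 107 peaks.

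All 107 peaks were 502 bp wide, so levels in CPM can be compared between peaks. The peak at the start of Jun (95051984 to 95052485) was the most open of the 107, with a mean of 29.2 CPM over the 15 libraries. It was followed by a peak 1.4 kb upstream of Junb at 22.7 CPM, the Atf3 promoter peak at 20.9 CPM, a peak 1.1 kb upstream of Jun at 20.8 CPM, the Junb promoter peak at 20.7 CPM and a peak in the gene body of Jund at 20.1 CPM. Batf had 1 strongly open peak, 18.9 kb downstream of its start, at 19.1 CPM, while the peak at its start stood at 2.54 CPM. The median peak of the 7 genes lay between 2.57 CPM (Batf) and 7.53 CPM (Junb).

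Early Fra2 cells had lower accessibility than early controls at more of these peaks than higher. Of the 107 peaks, 15 were called lower and 3 higher by edgeR (adjusted p under 0.05). That is 16.8% called, beside 15% of all 206349 tested peaks, and the background was 4.92% lower and 10.1% higher. Of the 15 lower peaks 6 belonged to Junb, 4 to Jdp2, 2 each to Jun and Atf3 and 1 to Batf3. The 3 higher peaks lay at Jun, Jdp2 and Atf3, and edgeR called no peak of Jund or Batf. The median log2 fold change was −0.14 over the 107 peaks and −0.03 over all peaks.

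This split depends on the scaling. With scaling factors taken from peaks within 1 kb of a gene start or end (gene-end scaling) in place of all peaks, the early calls were 17 higher and 4 lower, and the median of all peaks moved to 0.18. That is 19.6% of the 107 peaks, beside 20.5% of all peaks, of which 93.3% were higher. The 4 peaks that fell under both scalings were 1 at Junb, 2 at Jdp2 and 1 at Atf3. Gene-end peaks as a class lay low in early Fra2 cells, with a median of −0.22 over 26732 such peaks and −0.35 over the 20 near the 7 genes.

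Late Fra2 cells differed from late controls at 9 of the 107 peaks, 3 higher and 6 lower by edgeR (adjusted p under 0.05). That is 8.41%, beside a background of 9.98% (6.44% higher and 3.54% lower). The lower peaks were 2 at Junb, 2 at Jdp2, 1 at Jund and 1 at Atf3, and the higher peaks were 2 at Jun and 1 at Atf3. With gene-end scaling the late calls were 12 higher and 1 lower, at a median of all peaks of 0.23, which is 12.1% called beside 18.1% of all peaks. Without early control 3, which enters the late comparison through the shared estimate of spread, 18 peaks were called, 4 higher and 14 lower, which is 16.8% beside 16.4% of all peaks. Without late control 3 there was 1 call (4.28% of all peaks), and without late Fra2 2 there were 3 (4.67%).

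Counted without a test, the 3 Fra2 libraries all lay below the 3 controls at 20 of the 107 peaks early and at 22 late, and all above at 12 early and 9 late. Over all peaks 27% early and 31.3% late had groups that did not overlap in either direction. For the inhibitor these counts were 10 below and 3 above, with 18% over all peaks, and for late against early control 10 below and 7 above, with 17.9%.

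No difference between the late and early Fra2 effects was called at any of the 107 peaks by edgeR or by DESeq2, against a background of 0.0935% in edgeR. At an unadjusted edgeR p under 0.05 there were 9, a count without a share of all peaks at that threshold and so not read as a result. A call at 1 time and not at the other is therefore not shown to be a difference between times.

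**Figure D1:**
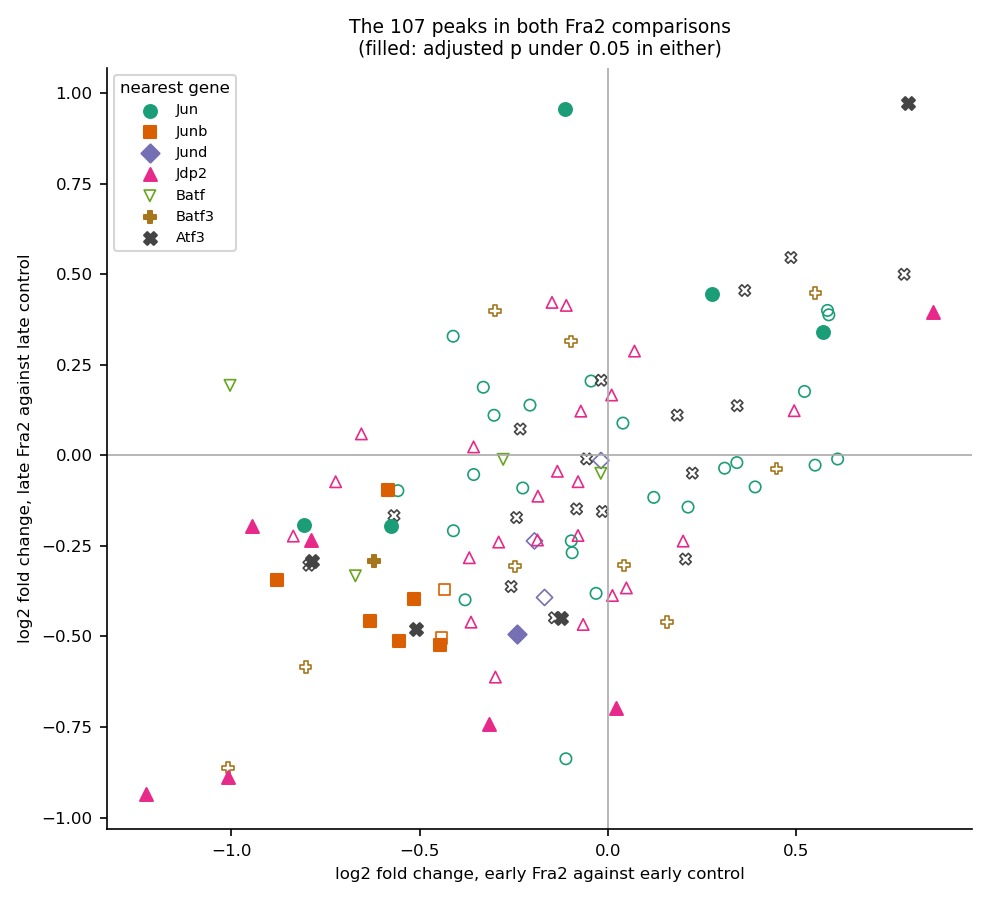
Log2 fold changes of the 107 peaks for Fra2 against control at the early time (horizontal axis) and at the late time (vertical axis), with 1 symbol per nearest gene and filled symbols for peaks with an edgeR adjusted p under 0.05 in either comparison. All 8 Junb peaks lie below 0 on both axes, and the Jun peak at 0.95 on the vertical axis lies near 0 on the horizontal axis.

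Junb, a Jun family protein with weaker transactivation than Jun, was less accessible in both Fra2 comparisons when its peaks were summed, and all 8 had negative log2 fold changes at both times. The counts of its 8 peaks were summed per library. The summed level was 127, 128 and 103 CPM in early controls 1 to 3 and 92.3, 88.1 and 78.1 CPM in early Fra2 libraries 1 to 3. It was 99.4, 108 and 109 CPM in late controls and 86.8, 81.6 and 83.0 CPM in late Fra2 libraries. At each time all 3 Fra2 libraries lay below all 3 controls, and the inhibitor libraries, at 108, 105 and 104 CPM, lay within the range of the early controls.

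The summed Junb level was lower by a log2 fold change of −0.48 ± 0.068 (SE, n = 3 a group; edgeR adjusted p = 2.47e-05) in early and of −0.33 ± 0.067 (edgeR adjusted p = 0.000973) in late Fra2 cells. Both calls held in each of 21 alternative settings, which cover other scalings, DESeq2, no filter, a replicate block and each library left out. With gene-end scaling the values were −0.31 and −0.17. Among sums of all 18294 tested genes 26.5% were called early (12.1% lower) and 23.9% late (10.6% lower). Of the 7 sums 2 were called early, those of Junb and Jdp2, and 1 late, that of Junb. The late effect minus the early one was 0.15 ± 0.095 (edgeR adjusted p = 0.588), and none of the 7 sums passed for that difference, beside 0.0711% of all genes.

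**Figure D2:**
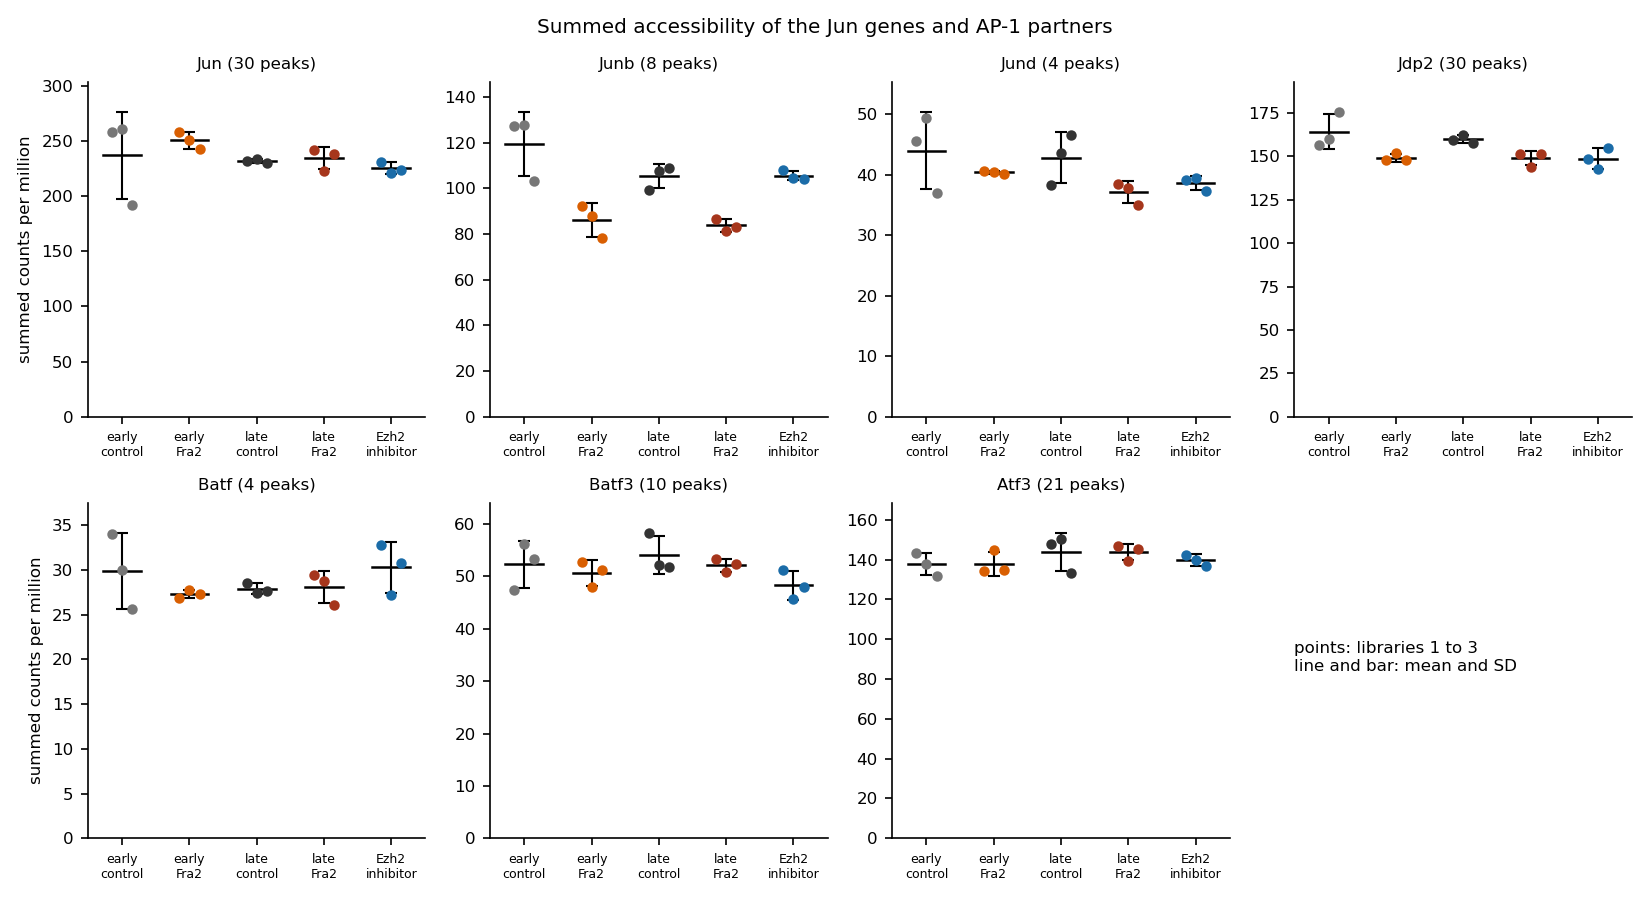
Summed accessibility (CPM, vertical axis from 0) of the peaks of each of the 7 genes by group, with points for libraries 1 to 3 and a line and bar for the mean and SD. For Junb the Fra2 libraries, at 78.1 to 92.3 CPM early and 81.6 to 86.8 CPM late, lie below the controls of the same time.

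Within the Junb locus, 6 of 8 peaks were called lower early. The strongest loss lay 1.6 kb downstream of the start, near the 3′ end of the short gene (84976948 to 84977449), with 8.85, 8.78 and 7.84 CPM in early controls and 4.89, 4.72 and 4.32 CPM in early Fra2 libraries. The groups do not overlap, and the log2 fold change was −0.88 ± 0.17 (edgeR adjusted p = 0.000167). This call held in all 21 alternative settings.

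The same peak stood at 4.71, 7.06 and 5.67 CPM in late controls and 4.67, 4.43 and 4.73 CPM in late Fra2 libraries. Late controls were thus already below all early controls there (−0.55 ± 0.17; edgeR adjusted p = 0.0481), a call that held in only 7 of 21 settings. The late Fra2 difference, −0.34 ± 0.17, did not pass (edgeR adjusted p = 0.185).

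The Junb promoter peak (84978492 to 84978993), which covers all but the outermost bases of the printed sequence, held 29, 30.8 and 18.2 CPM in early controls and 22.7, 18.9 and 13.5 CPM in early Fra2 libraries. The groups overlap through early control 3, and the peak was called at −0.52 ± 0.17 (edgeR adjusted p = 0.0267). The call was lost with gene-end scaling and without early control 1 or 2 or early Fra2 2 or 3, where the value lay between −0.31 and −0.54. In late cells it held 19, 23.3 and 21.4 CPM in controls and 16.3, 16.1 and 16.2 CPM in Fra2 libraries. These late groups do not overlap, but −0.40 ± 0.17 did not pass (edgeR adjusted p = 0.112).

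The most open Junb peak, 1.4 kb upstream (84979857 to 84980358), was called lower at both times. It held 29.4, 28.7 and 21.4 CPM in early controls and 19.2, 21.3 and 18.5 CPM in early Fra2 libraries (−0.45 ± 0.15; edgeR adjusted p = 0.0406). Late controls held 25.2, 25.6 and 29.9 CPM and late Fra2 libraries 19.9, 16.6 and 19.7 CPM (−0.52 ± 0.15; edgeR adjusted p = 0.0191). The groups do not overlap at either time. The early call held in 9 of 21 settings, with values from −0.56 to −0.24, and the late one in 17 of 21, with values from −0.57 to −0.22. The late call was lost with gene-end scaling (−0.29), with cyclic loess offsets (−0.22), without late control 3 (−0.44) and without late Fra2 2 (−0.44).

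The next peak outward, 2.3 kb upstream (84980814 to 84981315), was also lower at both times, at −0.56 ± 0.17 early (edgeR adjusted p = 0.0219) and −0.51 ± 0.16 late (edgeR adjusted p = 0.033). Each of these calls held in 16 of 21 settings and was lost with gene-end scaling. The other 2 peaks called early lay 0.7 kb downstream (−0.58 ± 0.16; edgeR adjusted p = 0.0104) and 0.6 kb upstream (−0.63 ± 0.18; edgeR adjusted p = 0.00966) of the start. These calls held in 18 and 19 of 21 settings. Both were lost with gene-end scaling (−0.37 and −0.41) and without early control 1, the first also without early Fra2 3. Of the Junb peaks only the one 1.6 kb downstream kept its early call with gene-end scaling. The remaining 2 Junb peaks had −0.43 and −0.44 early and did not pass (edgeR adjusted p = 0.0535 and 0.347).

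Jun, the founding AP-1 subunit and the main target of the kinase JNK, had no change at its promoter that edgeR called with all libraries and TMM scaling. The promoter peak, which covers the printed sequence, held 37, 36.1 and 23.9 CPM in early controls, 31.4, 33.5 and 27 CPM in early Fra2, 24.8, 31.5 and 31.6 CPM in late controls, 25.6, 23.3 and 25.8 CPM in late Fra2 and 31, 27.4 and 27.5 CPM in inhibitor libraries. Each pair of groups compared overlaps. The edgeR log2 fold changes were −0.10 ± 0.16 early, −0.24 ± 0.16 late and −0.19 ± 0.16 with the inhibitor (adjusted p = 0.713, 0.346 and 0.602). Late against early control gave −0.16 ± 0.16 (edgeR adjusted p = 0.66), and this passed with cyclic loess offsets (−0.26; edgeR adjusted p = 0.046).

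The largest changes at Jun lay at and past the 3′ end of the gene, between early and late scrambled controls. Late and early controls differed at 6 of the 107 peaks, 2 higher and 4 lower by edgeR (adjusted p under 0.05), which is 5.61% beside a background of 3.28% (2.04% higher and 1.23% lower). With gene-end scaling there were 4 higher and 4 lower, which is 7.48% beside 4.67% of all peaks. With TMM scaling over all peaks 0 gene sums were called, beside 4.61% of all genes. Of these 6 peaks 4 belonged to Jun: 3 neighbouring lower peaks on the 3′ side and 1 higher peak farther away. The other 2 were a Junb and a Batf3 peak.

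The outermost of the 3 lower Jun peaks, 4.4 kb downstream of the start and 1.2 kb past the gene (95047558 to 95048059), held 3.81, 4.93 and 3.22 CPM in early controls. In late controls it held 0.971, 1.27 and 0.914 CPM. All late controls were below all early ones, at a log2 fold change of −1.93 ± 0.29 (edgeR adjusted p = 4.07e-05), the largest size among the 107 peaks in that comparison. The call held in all 21 settings, from −2.10 to −1.76.

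The adjoining peak, 3.9 kb downstream (95048059 to 95048560), fell from 9.34, 9.14 and 5.32 CPM to 3.06, 4.10 and 4.14 CPM (−1.12 ± 0.18; edgeR adjusted p = 0.000171; 21 of 21 settings). The third, 3.4 kb downstream at the 3′ end (95048609 to 95049110), fell from 7.73, 5.66 and 3.64 CPM to 3.06, 3.38 and 2.62 CPM (−0.99 ± 0.21; edgeR adjusted p = 0.00276). Its groups do not overlap, although early control 3 stood close to late control 2. That call held in 20 of 21 settings and was lost without early control 1 (−0.68).

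Over the gene the values became more negative toward the 3′ side. From the start outward, peaks at 0.0, 0.7, 1.5, 2.1 and 2.8 kb had −0.16, −0.22, −0.40, −0.48 and −0.73, which edgeR did not call with all libraries and TMM scaling, before the 3 called values of −0.99, −1.12 and −1.93. Without early control 3 the peaks at 2.1 kb (−0.62; edgeR adjusted p = 0.0427) and 2.8 kb (−0.88; edgeR adjusted p = 0.0229) passed too. The peaks between the start and the 3′ end were described after their values were seen. The next peak, 6.9 kb downstream, had −0.41 ± 0.24 (edgeR adjusted p = 0.388).

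Of the Jun peaks called lower in late controls, those 3.9 and 3.4 kb downstream had 0.33 ± 0.19 and 0.19 ± 0.21 in late Fra2 against late control. Neither passed (edgeR adjusted p = 0.261 and 0.605), while the first did with gene-end scaling (0.57). The outermost, 4.4 kb downstream, stood higher in late Fra2 cells than in the late controls, which also enter its −1.93. It held 1.80, 2.24 and 2.15 CPM against the control values of 0.971, 1.27 and 0.914 CPM given above. The groups do not overlap, and the log2 fold change was 0.95 ± 0.30 (edgeR adjusted p = 0.0314). The call held in 17 of 21 settings and was lost without late control 1 (0.91), late control 3 (0.86), late Fra2 2 (0.89) or late Fra2 3 (0.92).

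In early Fra2 cells that peak held 3.13, 4.72 and 3.53 CPM, overlapping the early controls (−0.11 ± 0.25; edgeR adjusted p = 0.792). The late effect minus the early effect was 1.07 ± 0.39 and did not pass (edgeR adjusted p = 0.323). Inhibitor libraries held 2.81, 1.86 and 2.33 CPM, below all early controls, at −0.79 ± 0.25 (edgeR adjusted p = 0.0971). The group means thus ran from early control through early Fra2, inhibitor and late Fra2 down to late control.

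**Figure D3:**
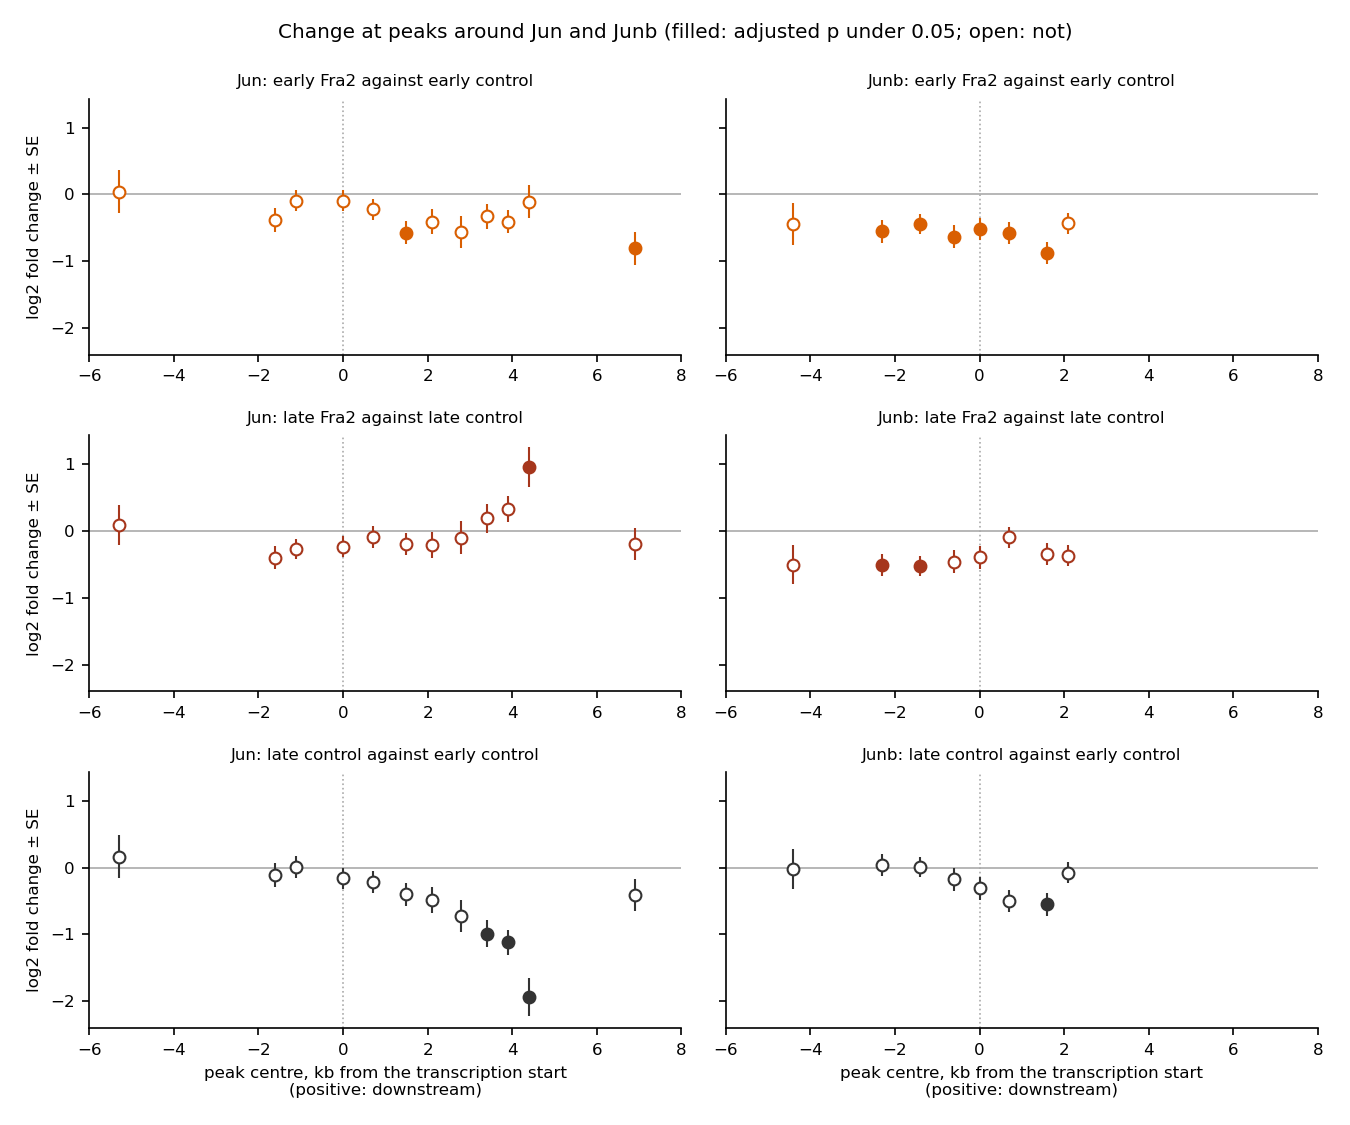
Log2 fold change ± SE (vertical axis) of peaks from 6 kb upstream to 8 kb downstream of the start of Jun (left) and Junb (right) by distance of the peak centre from the start in kb, for Fra2 against control at each time and for late against early control; filled points have an edgeR adjusted p under 0.05. Values at Jun in the control comparison go from −0.16 at the start to −1.93 at 4.4 kb downstream, where late Fra2 lies at 0.95.

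Early Fra2 cells had 2 lower and 1 higher Jun peaks. A gene-body peak 1.5 kb downstream of the start (95050503 to 95051004) held 8.26, 9.80 and 7.98 CPM in early controls and 6.03, 6.87 and 4.68 CPM in early Fra2 libraries (−0.58 ± 0.17; edgeR adjusted p = 0.0169). The groups do not overlap. The call was lost with gene-end scaling (−0.36) and without early control 2 or early Fra2 3, and held in 18 of 21 settings.

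The second lower peak lay 6.9 kb downstream (−0.81 ± 0.25; edgeR adjusted p = 0.0197). That call held in 17 of 21 settings and was lost with gene-end scaling (−0.59) and without early control 1, early control 2 or early Fra2 2. The higher peak lay 16.5 kb downstream (95035442 to 95035943; 0.57 ± 0.20; edgeR adjusted p = 0.0428). The higher one also rose from early to late controls (0.69 ± 0.20; edgeR adjusted p = 0.0355), from 4.83, 4.06 and 3.08 CPM to 8.22, 7.30 and 4.81 CPM. Late control 3 lay just below early control 1 there. Without early control 3 neither rise passed (0.46 and 0.59). The second Jun peak called higher in late Fra2 cells, 26.1 kb downstream, rose by 0.44 ± 0.15 (edgeR adjusted p = 0.0494), a call that held in 7 of 21 settings.

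The sum over the 30 Jun peaks was 258, 261 and 192 CPM in early controls and 258, 251 and 242 CPM in early Fra2 libraries, a log2 fold change of 0.07 ± 0.068 (edgeR adjusted p = 0.484). It was 232, 234 and 229.7 CPM in late controls and 242, 223 and 238 CPM in late Fra2 libraries (0.02 ± 0.067; edgeR adjusted p = 0.886). Early control 3 was the lowest of the 15 libraries. With gene-end scaling the sums were called higher, at 0.24 early and 0.17 late. In that setting 93.3% of all called peaks were higher early and 95.1% late.

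Jund, the Jun protein that is present in resting cells, had 4 peaks, of which 1 was called in 1 comparison. That peak, 3.0 kb downstream of the start and at the 3′ end (70700539 to 70701040), held 7.47, 7.60 and 9.20 CPM in late controls and 6.16, 5.07 and 6.02 CPM in late Fra2 libraries. All Fra2 libraries lay below all controls (−0.49 ± 0.16; edgeR adjusted p = 0.0421). The call held in 11 of 21 settings, from −0.55 to −0.26.

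The most open Jund peak, in the gene body (70698722 to 70699223), held 25.4, 25.5 and 16.7 CPM in early controls and 22.4, 18.5 and 18.9 CPM in early Fra2 libraries (−0.20 ± 0.16; edgeR adjusted p = 0.427). The groups overlap through early control 3. Inhibitor libraries held 19.3, 16.8 and 17.9 CPM (−0.35 ± 0.16; edgeR adjusted p = 0.288). Without early control 3 the inhibitor difference was −0.50 and passed (edgeR adjusted p = 0.0182).

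Jdp2, which pairs with Jun proteins and mostly represses, had 1 higher and 4 lower peaks early and 0 higher and 2 lower late by edgeR. That is 16.7% and 6.67% of its 30 peaks, beside 15% and 9.98% of all peaks. A peak 4.5 kb upstream of the start (85594312 to 85594813) held 4.61, 5.37 and 4.90 CPM in early controls and 8.07, 9.59 and 9.51 CPM in early Fra2 libraries. The groups are well apart, and the rise of 0.86 ± 0.18 (edgeR adjusted p = 0.000363) held in all 21 settings.

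In late cells the same peak held 7.10, 7 and 6.21 CPM in controls and 10.7, 7.79 and 7.98 CPM with Fra2 guides. Again no Fra2 library lay below a control, but 0.40 ± 0.16 did not pass (edgeR adjusted p = 0.102), while it passed with gene-end scaling (0.63; edgeR adjusted p = 0.00278) and with cyclic loess offsets (0.44).

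Inside Jdp2 a gene-body peak 23.9 kb downstream of the nearest start (85623673 to 85624174) fell from 7.62, 7.98 and 8.40 CPM in early controls to 4.27, 4.48 and 3.60 CPM in early Fra2 libraries. All Fra2 libraries were below all controls (−0.94 ± 0.18; edgeR adjusted p = 0.000168; 21 of 21 settings). Late controls, at 5.90, 6.21 and 7.68 CPM, and late Fra2 libraries, at 5.86, 4.27 and 7.31 CPM, overlapped (−0.19 ± 0.17; edgeR adjusted p = 0.492). The late effect minus the early one was 0.75 ± 0.25 (edgeR adjusted p = 0.263).

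A second gene-body peak, 2.3 kb downstream (85602031 to 85602532), held 4.78, 5.51 and 7.42 CPM in early controls and 3.85, 3.36 and 2.52 CPM in early Fra2 libraries (−0.79 ± 0.20; edgeR adjusted p = 0.00494; 21 of 21 settings). Early control 3 was the highest here, and without it the value was −0.64. The other 2 early losses at Jdp2 lay at weak peaks. One, 29.9 kb downstream, had 1.34, 2.47 and 5.88 CPM in early controls, and its −1.23 ± 0.38 became −0.59 without early control 3 and did not pass. The other, 50.7 kb upstream, had −1.01 ± 0.36 (edgeR adjusted p = 0.045) and held in 12 of 21 settings.

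Late Fra2 cells lost at a peak 2.9 kb past the 3′ end of Jdp2 (85642491 to 85642992), with 10.2, 11 and 8.89 CPM in controls and 6.42, 5.92 and 5.59 CPM with Fra2 guides. All Fra2 libraries lay below all controls (−0.74 ± 0.16; edgeR adjusted p = 0.0017; 21 of 21 settings). A peak 26.9 kb upstream (85571989 to 85572490) also fell late (−0.70 ± 0.21; edgeR adjusted p = 0.0277) and held in 14 of 21 settings. The early values at these 2 peaks were −0.32 ± 0.17 and 0.02 ± 0.20, which did not pass.

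RefSeq windows give Jdp2 3 starts, and 3 peaks overlap those windows, of which the first pair overlap each other and share reads. The most open of the 3 (85599588 to 85600089, 8.87 CPM) was called neither early nor late by edgeR with all libraries. The first (85598694 to 85599195), described after its values were seen, had all Fra2 libraries below all controls at both times. Its values were −0.36 ± 0.16 early (edgeR adjusted p = 0.114) and −0.46 ± 0.16 late (edgeR adjusted p = 0.0516). The late fall passed without early control 1, early control 3, early Fra2 3 or late control 1. The early fall passed with cyclic loess offsets (−0.40; edgeR adjusted p = 0.0423). The second (85599080 to 85599581) held 9.82, 9.72 and 9.10 CPM in early controls and 7.74, 7.83 and 6.70 CPM in early Fra2 libraries (−0.37 ± 0.16; edgeR adjusted p = 0.109). With cyclic loess offsets its early fall passed too (−0.40; edgeR adjusted p = 0.0409). Inhibitor libraries held 7.17, 6.49 and 6.91 CPM, below all early controls (−0.48 ± 0.16; edgeR adjusted p = 0.107), and this difference passed without early control 3 (−0.51) and with cyclic loess offsets (−0.49). The most open Jdp2 peak, 4.8 kb downstream (85604561 to 85605062; 10.7 CPM), had 0.20 ± 0.18 early and did not pass (edgeR adjusted p = 0.465), but with gene-end scaling it was called higher early (0.41; edgeR adjusted p = 0.0472). The summed level over 30 peaks was 157, 160.1 and 175 CPM in early controls and 148, 152 and 148 CPM in early Fra2 libraries. Its −0.13 ± 0.049 was just called (edgeR adjusted p = 0.0459), held in 5 of 21 settings and was 0.037 with gene-end scaling.

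Batf and Batf3 pair with Jun proteins and are best known from lymphocytes and dendritic cells. With all libraries and TMM scaling edgeR called no Batf peak in any comparison. The nearest to a call was a weak gene-body peak 14.1 kb downstream (85700533 to 85701034), with 1.5, 3.27 and 4.62 CPM in early controls and 1.28, 0.959 and 2.16 CPM in early Fra2 libraries (−1.0 ± 0.37; edgeR adjusted p = 0.0515). Its groups overlap through early control 1 and early Fra2 3, and it passed in 7 of 21 settings, among them DESeq2 (−1.04; adjusted p = 0.0494). The strongest Batf peak (85705387 to 85705888) held 25, 18.2 and 12.2 CPM in early controls, 19.9, 19.2 and 17 CPM in early Fra2, 18.2, 19.6 and 20.1 CPM in late controls, 20.5, 18.9 and 16.4 CPM in late Fra2 and 22.7, 17.7 and 21.1 CPM in inhibitor libraries. The early controls spread more widely than any other group, with control 3 lowest, and every comparison overlaps (early −0.02 ± 0.17; edgeR adjusted p = 0.953).

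At the start of Batf3 (191098198 to 191098699) accessibility was 4.88, 5.80 and 6.02 CPM in early controls and 3.70, 2.96 and 3.96 CPM in early Fra2 libraries. All Fra2 libraries lay below all controls (−0.62 ± 0.21; edgeR adjusted p = 0.0313), and the call held in 17 of 21 settings, being lost with gene-end scaling (−0.41) and without early control 2, early Fra2 1 or early Fra2 2. A gene-body peak 4.7 kb downstream (191102857 to 191103358) rose from early to late controls, from 4.78, 5.22 and 3.92 CPM to 8.14, 8.45 and 6.28 CPM (0.68 ± 0.20; edgeR adjusted p = 0.0362). All late controls lay above all early ones, but the call held in 15 of 21 settings and was lost without early control 3 (0.61), among others. The most open Batf3 peak, 27.7 kb downstream (13.2 CPM), was not called.

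Atf3, a stress-induced partner of Jun, had no called change at its promoter. The promoter peak (191183262 to 191183763) held 25.6, 20.5 and 18.2 CPM in early controls, 20.3, 21.2 and 20 CPM in early Fra2, 24, 25.8 and 20.3 CPM in late controls, 20.7, 20.2 and 22.3 CPM in late Fra2 and 20.9, 16.2 and 17.6 CPM in inhibitor libraries. The compared groups overlap, and edgeR gave −0.08 ± 0.16 early and −0.15 ± 0.15 late (adjusted p = 0.755 and 0.567).

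In the gene body, 3.3 kb downstream (191179798 to 191180299), early controls held 5.53, 6.46 and 5.18 CPM and early Fra2 libraries 3.61, 2.48 and 3.82 CPM. The groups do not overlap (−0.79 ± 0.20; edgeR adjusted p = 0.00393; 21 of 21 settings). Late controls held 5.6, 5.73 and 5.61 CPM and late Fra2 libraries 5.52, 3.63 and 4.60 CPM. The late Fra2 libraries lay lower too, library 1 only just, and −0.29 ± 0.18 did not pass (edgeR adjusted p = 0.307).

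A distal peak 47.3 kb upstream of Atf3 (191230334 to 191230835) was, with TMM scaling over all peaks, the only one of the 107 that edgeR called higher at both times. With gene-end scaling 7 were, this one included. It held 2.58, 2.61 and 1.68 CPM in early controls and 4.13, 3.92 and 4.4 CPM in early Fra2 libraries (0.80 ± 0.27; edgeR adjusted p = 0.0365). The early groups do not overlap, but the call was lost with DESeq2 (0.81) and without any 1 of the 6 early libraries of that comparison (0.68 to 0.88). In late cells it held 3.88, 0.965 and 2.25 CPM in controls and 4.24, 5.65 and 3.68 CPM with Fra2 guides (0.97 ± 0.26; edgeR adjusted p = 0.00993). Late control 1 overlaps the Fra2 libraries, and without late control 2 the value was 0.58 and did not pass. The call was also lost without late control 3 (0.96) or late Fra2 2 (0.78).

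Between that peak and the gene, a peak 41.6 kb upstream (191224691 to 191225192) fell early (−0.51 ± 0.17; edgeR adjusted p = 0.0305) and one 33.0 kb upstream (191216065 to 191216566) fell late (−0.45 ± 0.15; edgeR adjusted p = 0.0445). They held in 16 and 10 of 21 settings. The sum over the 21 Atf3 peaks was −0.01 ± 0.052 early and 0.00 ± 0.051 late and was not called (edgeR adjusted p = 0.94 and 0.975). With gene-end scaling, where 93.3% of all called peaks were higher early and 95.1% late, it was 0.17 and 0.16 and was called.

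**Figure D4:**
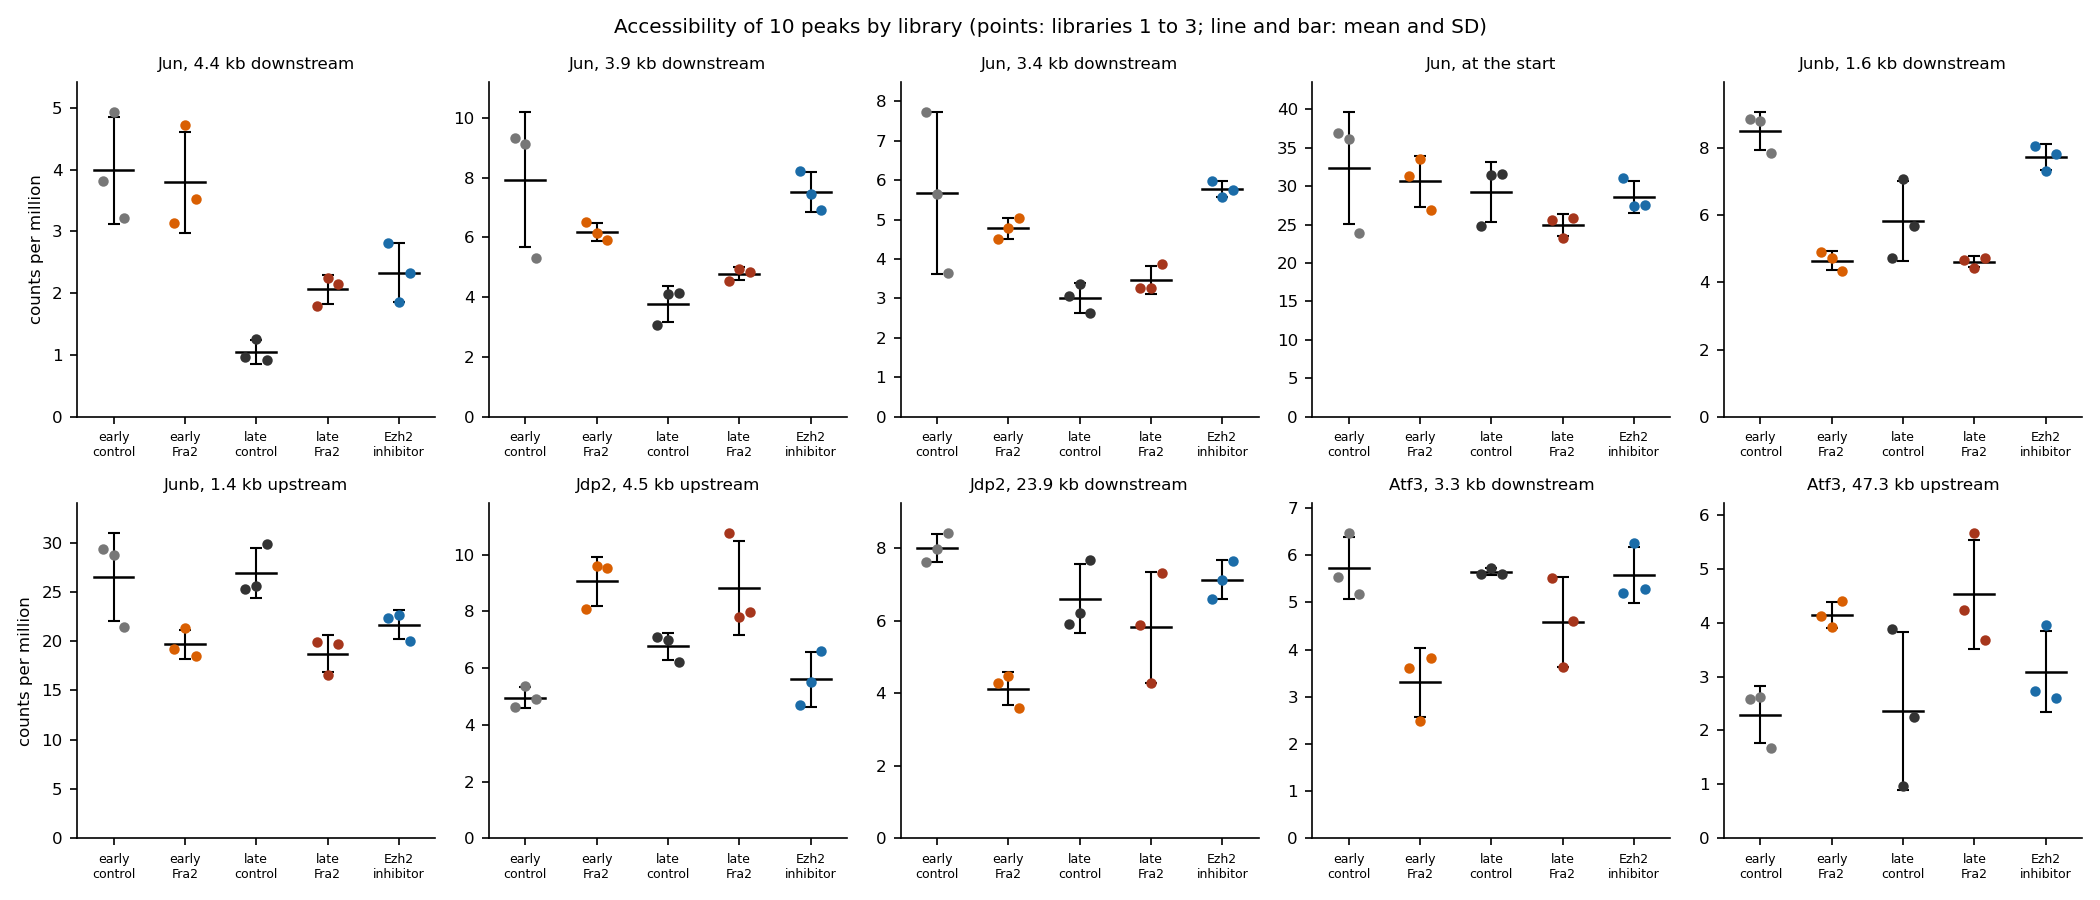
Accessibility (CPM, vertical axes from 0) of 10 peaks of Jun, Junb, Jdp2 and Atf3 by group, with distances from the nearest start in kb; points are libraries 1 to 3, and the line and bar give the mean and SD. The Jun peak 4.4 kb downstream is lowest in late controls (0.914 to 1.27 CPM), and the Jdp2 peak 4.5 kb upstream is higher in early Fra2 (8.07 to 9.59 CPM) than in early control libraries (4.61 to 5.37 CPM).

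The Ezh2 inhibitor called 0 of the 107 peaks in edgeR and 0 in DESeq2, against 0.893% of all peaks in edgeR. At an unadjusted edgeR p under 0.05 there were 12. The share of all peaks at that threshold was not taken, so this count is not read as a result. Without early control 3 edgeR called 6, all lower: 2 at Junb, 2 at Jun and 1 each at Jund and Jdp2. That is 5.61%, beside 3.67% of all peaks, of which 38.8% were higher. No gene sum passed for the inhibitor with all libraries, beside 5.02% of all genes, while without early control 3 the sums of Jun (−0.20), Junb (−0.27) and Jund (−0.30) did. The share of all genes called without early control 3 is not given, so these calls are not read as a result about the genes. The comparisons of the inhibitor, early Fra2 and late control all use the same early controls.

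The deposited peak lists give a second view of the same places. Of the 107 peaks 44 overlapped a called peak in all 15 libraries by at least 1 bp, and none lacked a called peak in every library. The number with a called peak in all 3 libraries of a group was 48 in early control, 73 in early Fra2, 69 in late control, 89 in late Fra2 and 96 in inhibitor libraries. The lists hold 114359 to 305369 peaks and early control 3 has the shortest, so these counts move with list length. The authors' highest fold enrichment of a called peak overlapping the start peak was 10.5 to 40.7 over the libraries for Jun and 7.30 to 35.4 for Junb. Neighbouring consensus peaks carry the same ranges, so these values are not particular to the starts.

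Other genes of the pathway were taken from 3 lists. Of 270 peaks of 15 other AP-1 and related leucine zipper genes, 19 were higher and 23 lower early and 12 and 20 late. These are 15.6% and 11.9%, beside 15% and 9.98% of all peaks. Of 36 peaks of Fosl2, the targeted gene, 9 were higher and 0 lower early and 8 and 2 late. Of 28 peaks of Fos, whose product pairs with Jun, 0 were higher and 8 lower early and 0 and 3 late. Over all peaks 10.1% were higher and 4.92% lower early, and 6.44% and 3.54% late. The early peaks of smallest adjusted p in each direction had 1.81 ± 0.26 at Fosl2 and −1.31 ± 0.19 at Fos (edgeR adjusted p = 8.25e-07 and 5.98e-07).

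Of 227 peaks of 14 genes of the JNK and MAPK pathway upstream of Jun, 20 were higher and 14 lower early and 20 and 9 late, which is 15% and 12.8% called beside 15% and 9.98% of all peaks. Map2k4, which encodes a kinase that activates JNK, rose at a peak 98.8 kb from the gene from 0.859, 1.67 and 2.52 CPM in early controls to 4.22, 6.08 and 4.83 CPM in early Fra2 libraries (1.72 ± 0.27; edgeR adjusted p = 4.97e-06). Mapk10, the gene of JNK3, rose in late cells at a gene-body peak from 2.99, 3.80 and 3.47 CPM to 8.65, 8.85 and 9.02 CPM (1.36 ± 0.17; edgeR adjusted p = 2.45e-07). Both rises separate the groups fully. Of 31 Map2k4 peaks 4 were higher and 2 lower early, and of 29 Mapk10 peaks 3 were higher and 1 lower late. Of 20 Map3k1 peaks 0 were higher and 3 lower late. Map3k1, a kinase upstream of JNK, fell late (−0.85 ± 0.21; edgeR adjusted p = 0.00539).

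Of 130 peaks of 6 genes of Jun turnover, 12 were higher and 7 lower early and 8 and 3 late, which is 14.6% and 8.46%, beside 15% and 9.98% of all peaks. Cop1, which encodes a ubiquitin ligase that acts on Jun, rose at 1 peak early (1.16 ± 0.21; edgeR adjusted p = 7.58e-05) and at another late (1.37 ± 0.28; edgeR adjusted p = 0.00103). Trib1, the gene of a pseudokinase that works with Cop1, fell early at a peak 8.6 kb away (−1.35 ± 0.24; edgeR adjusted p = 3.17e-05). That fall was the only one called early among 29 Trib1 peaks, of which 3 were higher. Of 20 Cop1 peaks 2 were higher and 0 lower at each time. The medians of the 3 lists were −0.11, −0.08 and −0.11 early, beside −0.03 over all peaks. Late they were −0.13, 0.013 and 0.017, beside −0.007 over all peaks.

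Genes with the profile most like that of a member over the 15 libraries were found from the root mean square difference of centred log2 summed levels. For Junb they were Per1, Id3 and Ptov1, at differences of 0.059, 0.062 and 0.071 beside a median of 0.24 over 15652 genes. For Jun they were Arfgap1, Ier5 and Aig1 (0.041 to 0.050, median 0.17). The nearest genes were Sirt4, 2310022B05Rik and Nr4a2 for Jund, Ephb3, Vgll4 and Mrps23 for Jdp2, and Tbx19, Gnpda1 and Arhgef39 for Batf. For Batf3 they were Zbtb10, Aldh18a1 and Dpp9, and for Atf3 they were Eif4h, Nav1 and Aff1.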

How the data were processed

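Per the labels, Omni-ATAC-seq was made from 15 libraries, 3 in each of 5 groups taken from the sample titles. The authors deposited 1 table of raw counts over consensus peaks, and a peak list for each library. Per the submitters' processing notes MACS2 and mm10 were used; the deposited lists carry fold enrichment, which is a ratio, and −log10 p and q values. Aligner settings, any read shift, the counting tool and all versions are not given, and duplicate or repeat reads that remain would move counts. The members, lists and named peaks were chosen with earlier results of these data known.

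Peaks were assigned to 21896 protein-coding RefSeq genes of GRCm38.p6, and starts were placed from RefSeq promoter windows. Counts were tested with edgeR 4.0.16 (quasi-likelihood F-test, TMM scaling, default filter, which removed 18 peaks and none of the 107) in R 4.3.3, in 1 fit of all libraries, and likewise as sums per gene. Adjusted p-values are Benjamini-Hochberg over all 206349 peaks or 18294 genes, called under 0.05. The fit was tested on simulated data. CPM are TMM-scaled, with SD over 3 libraries, and a count of 3 is worth 0.117 to 0.42 CPM, counting error only. Alternatives were DESeq2 1.42.0, its size factors, factors from gene-end peaks (centre within 1 kb of an annotated end), cyclic loess (limma 3.58.1), no filter, a replicate block, peaks within 10 kb and each library left out. Named peaks are, per gene, the most open peak, the most open gene-end peak and the peak of smallest adjusted p in each comparison with a call; other called peaks were named after their values were seen. From each pathway list the peak of smallest adjusted p in each direction is named, except 2 that are not reported here. Profiles were compared for genes averaging at least 10 CPM.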

Additional observations from a re-analysis of the deposited data

How the results depend on the processing

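Counts of called peaks among the 107 kept within 1.5 times their value except as follows. With cyclic loess offsets 29 were called early, 2 with the inhibitor and 10 between controls. These are 27.1%, 1.87% and 9.35% of the 107, beside 19.9%, 2.6% and 4.75% of all peaks. DESeq2 called 3 between controls, which is 2.8% beside 2.78% of all peaks. With peaks within 10 kb of a gene 5 were called late. This setting only leaves out peaks and keeps the fit: 12 of 30 peaks remain at Jun, 19 of 30 at Jdp2, 7 of 10 at Batf3 and 11 of 21 at Atf3. The share called of all peaks within 10 kb is not given, so the lower count is not read as a loss of calls. Leaving out 1 library gave 10 to 21 calls early (10 without early control 2, 11 without early Fra2 2), beside 9.56% to 19.5% of all peaks. It gave 1 to 18 late, beside 4.28% to 16.4% of all peaks. Late counts included 1 without late control 3, 3 without late Fra2 2 and 18 without early control 3. There were 4 without late control 2, late Fra2 1 or late Fra2 3. The inhibitor had 0 to 6 calls, beside 0.107% to 3.67% of all peaks. Between controls there were 3 to 8 (3 without early control 2 or late control 1), beside 1.11% to 4.21% of all peaks. Of the gene sums, 2 were called early (Junb and Jdp2); this became 1 with DESeq2, with its size factors and within 10 kb, and 1 to 3 when 1 library was left out. The 1 late call became 3 with gene-end scaling and 1 to 3 when 1 library was left out. The inhibitor had 0 to 3 and the control comparison 0 to 2 when 1 library was left out, the highest in each case without early control 3, and the control comparison had 1 with cyclic loess offsets and 1 within 10 kb, the Jun sum (−0.30; edgeR adjusted p = 0.0133). The share of all genes called in each of these settings is not given, so the counts of sums are not read as results about the genes. With gene-end scaling 2 early sums were counted as reversed, Jdp2 to 0.037 and Atf3 to 0.17, where a reversal was counted only if 1 of the values was called. The early sums of Jund (0.032), Batf (0.021) and Batf3 (0.14) also changed sign there, with neither value called. Over named peaks and sums, 968 values kept their side of the threshold, 87 lost a call and 14 gained one. The 968 include values that changed sign where neither value was called. The causes were not tested, except that leaving a library out also lowers the number of samples. The replicate block called 21 of the 107 peaks early and 8 late, beside 15.1% and 9.89% of all peaks. It called 0 with the inhibitor, 5 between controls and 0 for the difference of effects, beside 0.99%, 3.55% and 0.123%. Correlations of same-numbered deviations were 0.262, −0.00847 and 0.232 in early cells and −0.0904, −0.0264 and −0.0089 in late cells. Differently numbered early libraries gave −0.272 (control 3 with Fra2 1) to 0.117 (control 2 with Fra2 1). Differently numbered late libraries gave −0.033 (control 3 with Fra2 2) to 0.0574 (control 2 with Fra2 1). Whether the numbers pair the samples was not tested. Depth limits weak peaks most, above all in early control 3.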
